A study of Mus musculus with 12 samples.

Results

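Interneuron and ventral forebrain genes were followed across total and polysome mRNA of mouse cortical cells, with and without inhibition of the kinase mTOR. The members are the transcription factor genes Dlx1, Dlx2, Dlx5, Sp8, Sp9 and Lhx6, the glutamate decarboxylase genes Gad1 and Gad2, and the calretinin gene Calb2. They were taken by gene name, 9 of the 53351 genes in the deposited table, and all 9 had values above 0 in each of the 12 libraries and passed the filter on low values.

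Cells from wild-type mouse cortex at E13.5, labelled as primary neural progenitor cells, were kept overnight in medium with bFGF and EGF. They then received 250 nM Torin1, an inhibitor of both mTOR complexes, or its solvent DMSO for 2 h, and all cultures were given cycloheximide at 100 ug/ml for 5 min to hold ribosomes on their mRNAs. Polysome mRNA came from the sucrose gradient fractions with more than 3 ribosomes per mRNA, and total mRNA from the 10% of the lysate kept before the gradient. The 4 groups, each of 3 libraries labelled as biological replicates, were polysome mRNA of Torin1 cells, polysome mRNA of DMSO cells, total mRNA of Torin1 cells and total mRNA of DMSO cells. The cells were mixed cortical cells and not a sorted population.

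In the embryonic forebrain, GABAergic neurons arise in the ganglionic eminences below the cortex and migrate into it. Dlx1 and Dlx2 are homeobox genes of ventral progenitors and their daughter cells, Dlx5 acts later in the same lineage, and these factors activate Gad1 and Gad2, whose enzymes make the transmitter GABA. Lhx6 marks cells of the medial ganglionic eminence, whereas the zinc finger genes Sp8 and Sp9 mark the lateral and caudal eminences and, for Sp9, medial eminence derivatives as well. Sp8 is also expressed in cortical progenitors, where it takes part in area patterning, and Calb2 is carried by a class of interneurons and by Cajal-Retzius cells. mTOR complex 1 controls translation, most strongly of mRNAs that begin with a run of pyrimidines directly behind the cap.

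Values below are scaled abundances in parts-per-million (ppm) of a library, obtained from the deposited signal. Reads per library are unknown, and column totals of the deposited signal ran from 14341674 to 19201406. Folds are differences of log2(scaled value + 1), each with its standard error, and adjusted p-values come from limma with Benjamini-Hochberg adjustment over 20240 genes, at a threshold of 0.05. Expressed genes are the 9187 with a mean of at least 8 ppm on the log scale. Total Torin1 replicate 2 stood apart, with 2069 ppm of the small nuclear RNA gene Rn7sk, against 38.7 to 183 ppm in the other 5 total libraries. Levels are not compared between genes, since the files do not say whether the values are per length. In these bulk samples fewer cells of a type and less RNA per cell cannot be told apart.

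In total mRNA 3 of the 9 members were higher in Torin1 cells and 0 were lower, where 3.04% of all genes tested were called higher and 4.35% lower. The 3 were Sp8, Sp9 and Dlx5. Because members and gene lists were chosen with earlier results of these data known, their counts beside these shares are no test of the sets. The median log2 fold of the 9 members was 0.34, against -0.012 over all genes tested and -0.059 over the expressed genes. The called shares are over all 20240 genes tested, of which 9187 were expressed, and were not matched to the members' level. The groups did not overlap for 5 members, with Torin1 libraries above DMSO libraries for Dlx2, Dlx5, Gad1, Sp8 and Sp9, where this held for 14.7% of all genes, and the opposite for 18.7%. In polysome mRNA the same 3 genes were higher and 0 were lower, where 4.57% of all genes were called higher and 5.45% lower. The members' median log2 fold was 0.23, against 0 over all genes and -0.044 over the expressed genes. Torin1 libraries lay above DMSO libraries without overlap for these 3 members, where this held for 11.7% of all genes, and the opposite for 12.3%.

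**Figure D1:**
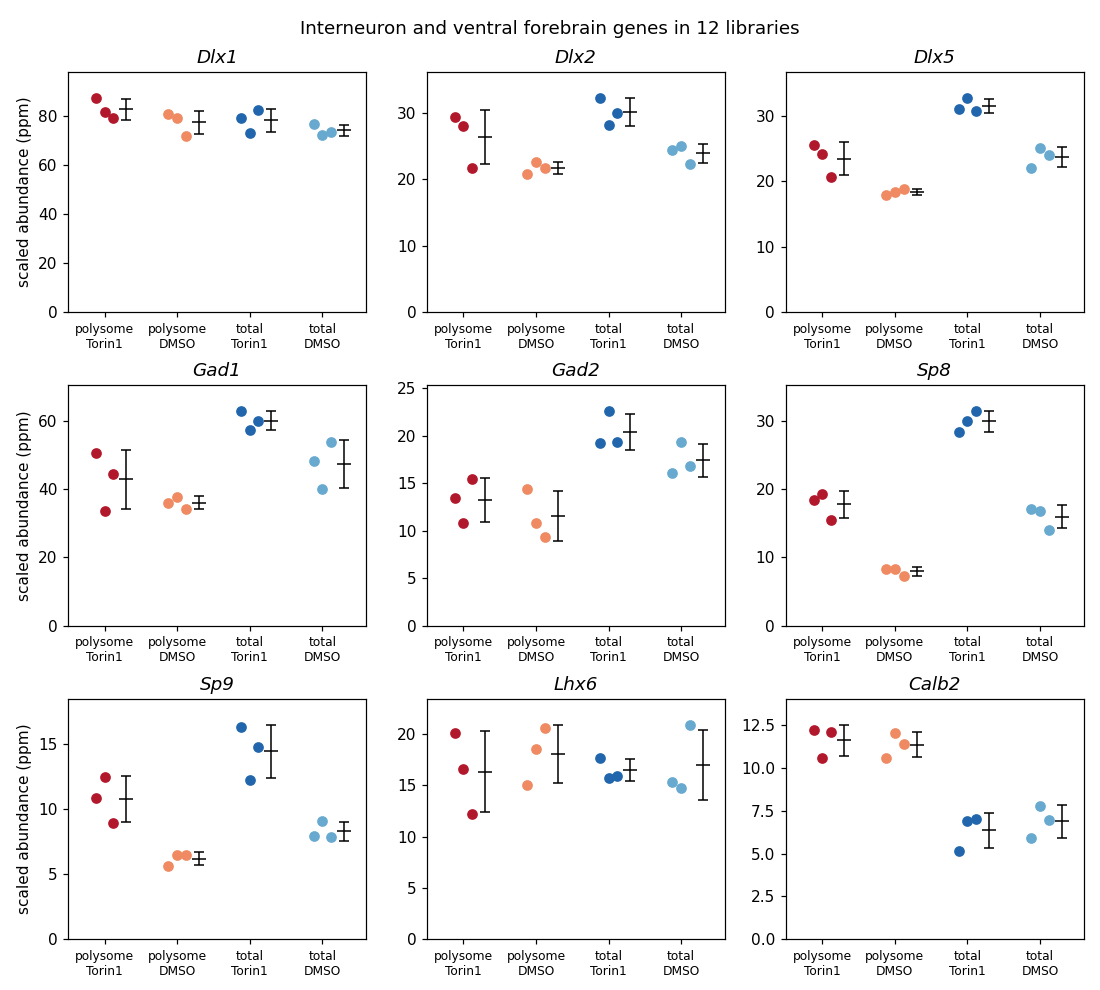
Scaled abundance in ppm of each of the 9 genes (y axis, linear, from 0) in the 4 groups of 3 libraries (x axis); points are libraries and the bar beside them is the mean ± SD. Sp8 points of Torin1 cells lie above those of DMSO cells in both fractions (mean 17.8 ppm with Torin1 against 7.95 ppm with DMSO in polysome mRNA, and 29.9 ppm with Torin1 against 15.9 ppm with DMSO in total mRNA), and Calb2 points of polysome mRNA lie above those of total mRNA.

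Sp8 had the largest Torin1 fold of the members in both fractions. In total mRNA it stood at 28.4, 30.1 and 31.4 ppm in Torin1 libraries, against 17.1, 16.7 and 13.99 ppm in DMSO libraries. In polysome mRNA it stood at 18.5, 19.3 and 15.5 ppm in Torin1 libraries, against 8.34, 8.31 and 7.20 ppm in DMSO libraries. Each Torin1 library was above each DMSO library of its fraction. The log2 fold was 0.91 ± 0.11 in total mRNA (limma, adjusted p = 0.000838) and 1.15 ± 0.11 in polysome mRNA (adjusted p = 7.16e-05). Ordered by fold among the 9187 expressed genes, Sp8 held rank 43 in total mRNA and rank 17 in polysome mRNA.

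Sp9, the closest relative of Sp8 among the members, was also higher. Torin1 libraries had 16.3, 12.2 and 14.8 ppm in total mRNA, against 7.91, 9.09 and 7.82 ppm in DMSO libraries. In polysome mRNA Torin1 libraries had 10.9, 12.4 and 8.94 ppm, against 5.62, 6.49 and 6.44 ppm in DMSO libraries. The groups did not overlap in either fraction. The log2 fold was 0.79 ± 0.14 in total mRNA (limma, adjusted p = 0.00695) and 0.78 ± 0.14 in polysome mRNA (adjusted p = 0.00482). With each of the 12 libraries left out in turn, the Sp8 and Sp9 calls in both fractions held, with log2 folds from 0.82 to 1.25 for Sp8 and from 0.68 to 0.91 for Sp9.

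Of the members' promoters, those of the 2 genes that moved most are shown, with the longest stretch of bases they share in capitals. The 100 bases before the transcription start come from RefSeq (GRCm38.p6): Sp9 at chr2:73271826-73271925, plus strand, and Sp8 at chr12:118847133-118847232, plus strand, which is the second of 3 starts that RefSeq gives for Sp8.
Sp9: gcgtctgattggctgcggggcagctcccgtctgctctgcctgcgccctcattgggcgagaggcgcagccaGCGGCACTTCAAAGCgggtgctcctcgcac
Sp8: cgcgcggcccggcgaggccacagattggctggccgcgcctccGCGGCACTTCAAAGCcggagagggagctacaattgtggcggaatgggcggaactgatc
The shared stretch is 15 bases long and begins 30 bases before the Sp9 start and 58 bases before the Sp8 start. It was found by searching for the longest common run, and of 32851 windows of 300 bases around RefSeq starts, read on both strands, only these 2 hold it (0.00609%). The stretch was chosen because both windows hold it, as the longest run over the 3 Sp8 starts. Its share among the windows is therefore no test of whether it is particular to these genes. This is a description of letters and no site was tested. For the first Sp8 start the longest stretch shared with Sp9 was 8 bases, which 1.21% of the windows hold.

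The bases at the listed RefSeq starts of the members were compared with the pyrimidine start named above. The table of promoters held 7 of the 9 members, all but Dlx5 and Calb2, with 11 starts. Windows of 30 bases from GRCm38.p6 are shown for the paired Dlx genes, for Sp9, for Sp8 and for Gad1 and Gad2, with the first 5 transcribed bases in capitals.
Dlx1, chr2:71529430-71529459, plus strand: agtggtccggggtccCAGGCgttgggggcg
Dlx2, chr2:71546740-71546769, minus strand: tgcaggagcctgcccGGCAGacaatcgtaa
Sp9, chr2:73271911-73271940, plus strand: gggtgctcctcgcacTTAGGctgagttttg
Sp8 (second start), chr12:118847218-118847247, plus strand: tgggcggaactgatcATTGTattgcacacc
Gad1, chr2:70562114-70562143, plus strand: ccccactccgcccccGCCTCccccaagccc
Gad2, chr2:22622312-22622341, plus strand: ccaccaagctccctcTCCCTaaaaatctct
None of the 11 starts has a C followed by 4 bases that are each C or T, which 2.51% of the 32851 windows have at their start. The RefSeq gene spans of Dlx1, Gad1 and Gad2 begin upstream of the starts shown, at 71528113, 70561303 and 22621015. Those of Lhx6 and Sp8 also reach upstream of their first listed starts. Starts further upstream were not examined, so the count covers the listed starts only. The first 5 transcribed bases of Gad2 are all C or T, but the first of them is T, so this count leaves Gad2 out. Within the 300 bases, on both strands, CCAAT stood in 7 of the 11 windows against 37.4% of all windows, and GGGCGG in 7 of 11 against 35.7%; 3 of the windows belong to Lhx6 and 3 to Sp8. TAATTA, the core letters many homeodomain proteins bind, stood in 1 of 11 windows against 5.29% of all windows. G and C made up 43.0% to 69.3% of the bases in the 11 windows, against a median of 52.7% over all windows. The motif shares were not adjusted for this.

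The Dlx genes differed among themselves. Dlx1 and Dlx2 lie beside each other on chromosome 2, at 71528113 to 71533981 and 71543408 to 71546754 (GRCm38), with 9426 bases between them. Dlx1 had 79.0, 73.1 and 82.4 ppm in total mRNA of Torin1 cells, against 76.7, 72.3 and 73.5 ppm in total mRNA of DMSO cells. Its polysome mRNA stood at 87.5, 81.7 and 79.1 ppm in Torin1 cells, against 80.8, 79.3 and 71.9 ppm in DMSO cells. The groups overlapped in both fractions, and neither fold passed the test, at 0.074 ± 0.069 in total mRNA (95% interval -0.077 to 0.23; limma, adjusted p = 0.6) and 0.098 ± 0.069 in polysome mRNA (-0.053 to 0.25; adjusted p = 0.440).

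Dlx2 had 32.3, 28.1 and 30.0 ppm in total mRNA of Torin1 cells, against 24.4, 25.0 and 22.3 ppm in DMSO cells, and these groups did not overlap. Polysome values were 29.3, 28.0 and 21.7 ppm in Torin1 cells, against 20.8, 22.6 and 21.7 ppm in DMSO cells. Here Torin1 replicate 3 lay within the DMSO values. Neither fold passed, at 0.34 ± 0.11 in total mRNA (limma, adjusted p = 0.0879) and 0.27 ± 0.11 in polysome mRNA (adjusted p = 0.147). Without polysome Torin1 replicate 3 both passed, with adjusted p = 0.0141 in total mRNA and a log2 fold of 0.40 with adjusted p = 0.00835 in polysome mRNA. With the 2 total groups fitted alone the total mRNA fold also passed (adjusted p = 0.0253).

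The ratio of Dlx2 to Dlx1 within a library does not depend on how libraries are scaled. In total mRNA it was 0.409, 0.385 and 0.364 in Torin1 libraries, against 0.318, 0.346 and 0.303 in DMSO libraries. The polysome ratios were 0.335, 0.343 and 0.275 in Torin1 libraries, against 0.258, 0.285 and 0.301 in DMSO libraries. The groups stood apart in total mRNA and overlapped in polysome mRNA. With 3 libraries against 3 an exact two-sided permutation test cannot go below p = 0.10, and none was run on the ratios. The ratio of Sp8 to Dlx1 was 0.360, 0.411 and 0.381 in total Torin1 libraries, against 0.223, 0.231 and 0.191 in total DMSO libraries. Polysome ratios were 0.211, 0.237 and 0.196 in Torin1 libraries, against 0.103, 0.105 and 0.1 in DMSO libraries. These ratios did not overlap in either fraction. The ratio of Dlx5 to Dlx2 overlapped between treatments in both.

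An antisense gene, Dlx1as, overlaps Dlx1 on chromosome 2 (71530638 to 71537891, GRCm38), and the files do not say whether reads were counted by strand, so reads of both genes cannot be told apart with certainty. Dlx1as had 38.3, 33.3 and 39.9 ppm in polysome mRNA of Torin1 cells, against 27.5, 31.7 and 31.9 ppm in DMSO cells. In total mRNA it had 30.7, 27.3 and 31.2 ppm in Torin1 cells, against 28.0, 20.0 and 21.6 ppm in DMSO cells. Neither fold passed the test, at 0.29 ± 0.12 in polysome mRNA (limma, adjusted p = 0.170) and 0.37 ± 0.12 in total mRNA (adjusted p = 0.0977).

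Dlx5, on chromosome 6 (6877801 to 6882068, GRCm38) beside Dlx6, was higher in both fractions. It had 31.0, 32.8 and 30.7 ppm in total mRNA of Torin1 cells, against 22.0, 25.0 and 24.0 ppm in DMSO cells. In polysome mRNA it had 25.5, 24.2 and 20.6 ppm in Torin1 cells, against 17.9, 18.4 and 18.7 ppm in DMSO cells. Torin1 libraries lay above DMSO libraries in both. The log2 folds were 0.41 ± 0.086 in total mRNA (limma, adjusted p = 0.0145) and 0.35 ± 0.086 in polysome mRNA (adjusted p = 0.0252). The call in total mRNA was lost without total Torin1 replicate 2 (adjusted p = 0.0584), without total DMSO replicate 1 (0.0654) and with scaling to the column total (0.0892). In polysome mRNA it was lost without any one polysome library other than Torin1 replicate 3, up to an adjusted p = 0.0851 without DMSO replicate 1, and when those 2 groups were fitted alone (0.128). Dlx6, its neighbour and paralog, had 14.4 ± 0.269 ppm in total mRNA of Torin1 cells and 12.6 ± 2.21 ppm in DMSO cells (SD, n = 3 each), and its log2 fold of 0.21 ± 0.20 did not pass (adjusted p = 0.603). In polysome mRNA it had 11.1 ± 3.33 ppm in Torin1 cells and 8.51 ± 1.48 ppm in DMSO cells, and its log2 fold of 0.35 ± 0.20 did not pass either (limma, adjusted p = 0.317).

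The decarboxylase genes did not pass the test in either fraction. Gad1, which encodes the enzyme found throughout the neuron, had 62.9, 57.4 and 60.0 ppm in total mRNA of Torin1 cells, against 48.1, 40.04 and 53.8 ppm in DMSO cells. Its polysome mRNA stood at 50.6, 33.5 and 44.6 ppm in Torin1 cells, against 36.0, 37.8 and 34.1 ppm in DMSO cells. The groups stood apart in total mRNA and overlapped in polysome mRNA. The log2 folds were 0.35 ± 0.14 in total mRNA (limma, adjusted p = 0.161) and 0.23 ± 0.14 in polysome mRNA (adjusted p = 0.345).

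Gad2, which encodes the form concentrated at nerve terminals, had 19.2, 22.6 and 19.4 ppm in total mRNA of Torin1 cells, against 16.1, 19.3 and 16.8 ppm in DMSO cells. Polysome values were 13.45, 10.8 and 15.4 ppm in Torin1 cells, against 14.4, 10.8 and 9.38 ppm in DMSO cells. The groups overlapped in both fractions. The log2 folds were 0.23 ± 0.16 in total mRNA (95% interval -0.13 to 0.59; limma, adjusted p = 0.480) and 0.21 ± 0.16 in polysome mRNA (-0.15 to 0.57; adjusted p = 0.506).

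Lhx6, the factor of the medial eminence lineage, had 17.7, 15.7 and 16.0 ppm in total mRNA of Torin1 cells, against 15.3, 14.8 and 20.9 ppm in DMSO cells. In polysome mRNA it had 20.2, 16.6 and 12.3 ppm in Torin1 cells, against 15.01, 18.6 and 20.6 ppm in DMSO cells. It was the most scattered member in polysome mRNA of Torin1 cells, with a coefficient of variation of 24.2%, and the groups overlapped in both fractions. Its log2 folds were -0.031 ± 0.19 in total mRNA (95% interval -0.44 to 0.37; limma, adjusted p = 0.955) and -0.16 ± 0.19 in polysome mRNA (-0.57 to 0.24; adjusted p = 0.663).

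Calb2, whose calretinin protein binds calcium, had 5.17, 6.89 and 7.02 ppm in total mRNA of Torin1 cells, against 5.89, 7.80 and 6.98 ppm in DMSO cells. Its polysome mRNA stood at 12.2, 10.6 and 12.1 ppm in Torin1 cells, against 10.6, 12.1 and 11.4 ppm in DMSO cells. Torin1 and DMSO values overlapped in both fractions. The log2 folds were -0.12 ± 0.14 in total mRNA (95% interval -0.43 to 0.19; limma, adjusted p = 0.693) and 0.032 ± 0.14 in polysome mRNA (-0.28 to 0.34; adjusted p = 0.933).

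**Figure D2:**
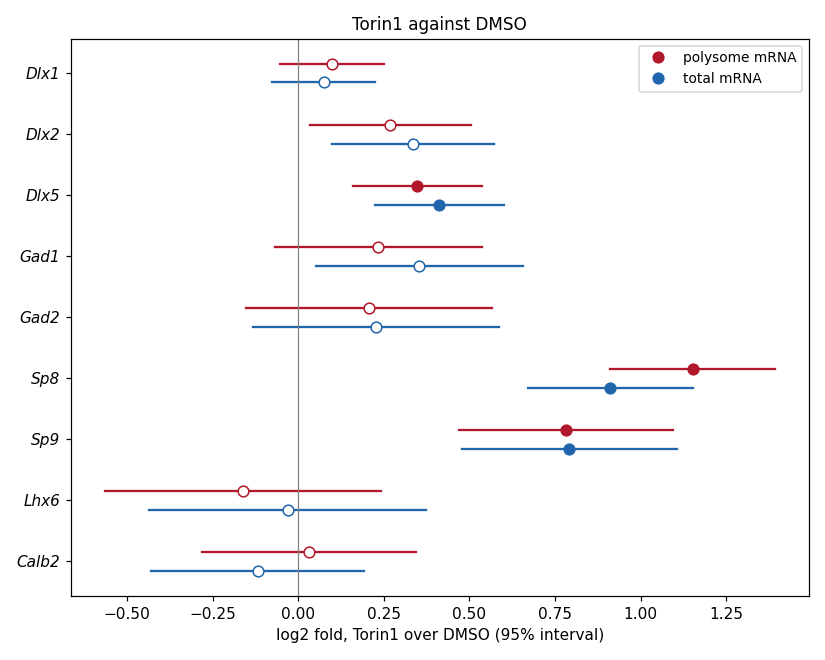
Log2 fold of Torin1 over DMSO (x axis) for each of the 9 genes (y axis) in polysome mRNA (red) and total mRNA (blue), with 95% intervals; filled points passed an adjusted p of 0.05 and open points did not. Sp8 (1.15 in polysome and 0.91 in total mRNA), Sp9 and Dlx5 are filled in both fractions.

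Whether Torin1 moved a member differently in polysome and in total mRNA was tested as the interaction, the polysome fold minus the total fold. Of the 9 members 0 passed, where limma called 0.726% of all genes. No member had an unadjusted p under 0.05. The largest difference was that of Sp8, at 0.24 ± 0.16 (95% interval -0.10 to 0.58; adjusted p = 0.998). For Sp9 it was -0.010 ± 0.20 (-0.45 to 0.43), for Dlx5 -0.064 ± 0.12 (-0.33 to 0.20) and for Dlx2 -0.066 ± 0.15 (-0.40 to 0.27). The intervals leave room for a difference of about the size of the Dlx5 fold in either direction for Sp9, and the test does not show that the folds were alike.

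Polysome mRNA was next compared with total mRNA within each treatment, which gives how a transcript's share among mRNAs with more than 3 ribosomes differed from its share in the lysate. In Torin1 cells 5 of the 9 members were lower and 1 was higher in polysome mRNA, where 19.2% of all genes were called lower and 20.4% higher. In DMSO cells 5 were lower and 1 was higher, where 20.5% were called lower and 20.5% higher. The members' median log2 fold of polysome over total mRNA was -0.43 in Torin1 cells, against -0.022 over all genes, and -0.37 in DMSO cells, against -0.035 over all genes. Over the expressed genes this median was 0.12 in Torin1 cells and 0.11 in DMSO cells. In both treatments the lower genes were Dlx5, Gad1, Gad2, Sp8 and Sp9, and the higher one was Calb2. Without overlap, polysome libraries lay below total libraries for 4 members in Torin1 cells (23.7% of all genes) and for 5 in DMSO cells (27.3%), and above them for Calb2 in Torin1 cells (23.5% of all genes) and in DMSO cells (25.9%). The 2 comparisons rest on separate libraries, but each shares its libraries with the Torin1 comparisons above.

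Sp8 had the largest fall of the members in both treatments. Its log2 fold of polysome over total mRNA was -0.76 ± 0.11 in Torin1 cells (17.8 ± 1.99 ppm in polysome mRNA against 29.9 ± 1.498 ppm in total mRNA; limma, adjusted p = 0.00016). In DMSO cells it was -0.996 ± 0.11 (7.95 ± 0.650 ppm in polysome mRNA against 15.9 ± 1.70 ppm in total mRNA; adjusted p = 1.82e-05). All ± values of levels are SD over n = 3. Polysome and total libraries did not overlap in either treatment.

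Sp9 was lower in polysome mRNA at 10.8 ± 1.75 ppm against 14.4 ± 2.04 ppm in total mRNA of Torin1 cells, and at 6.18 ± 0.490 ppm against 8.27 ± 0.710 ppm in total mRNA of DMSO cells (SD, n = 3 each). Its log2 folds were -0.43 ± 0.14 in Torin1 cells (limma, adjusted p = 0.0325), where the groups overlapped, and -0.42 ± 0.14 in DMSO cells (adjusted p = 0.0351), where they did not. These calls were less firm than that of Sp8. In Torin1 cells the call was lost in 4 of 12 runs with a library left out (polysome Torin1 replicates 1 and 3 and total Torin1 replicates 1 and 3), up to an adjusted p = 0.118 without total Torin1 replicate 1, and with the 2 groups fitted alone (0.0768). In DMSO cells it was lost in 5 of 12 runs (any one polysome DMSO library, and total DMSO replicates 1 and 2), up to 0.119 without polysome DMSO replicate 1.

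Dlx5 was lower in polysome mRNA by a log2 fold of -0.43 ± 0.086 in Torin1 cells (limma, adjusted p = 0.00157) and -0.37 ± 0.086 in DMSO cells (adjusted p = 0.00437), and the per-library values given above do not overlap in either treatment. Dlx1 and Dlx2 passed in neither treatment. The log2 fold of Dlx1 was 0.083 ± 0.069 in Torin1 cells and 0.059 ± 0.069 in DMSO cells. That of Dlx2 was -0.20 ± 0.11 in Torin1 cells and -0.14 ± 0.11 in DMSO cells. Lhx6 did not pass either, at -0.038 ± 0.19 in Torin1 cells and 0.093 ± 0.19 in DMSO cells.

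Both decarboxylase transcripts were lower in polysome mRNA. Gad1 averaged 42.9 ± 8.68 ppm in polysome mRNA and 60.1 ± 2.73 ppm in total mRNA of Torin1 cells, and 36.0 ± 1.85 ppm in polysome mRNA and 47.3 ± 6.94 ppm in total mRNA of DMSO cells (SD, n = 3 each). Gad2 averaged 13.2 ± 2.31 ppm in polysome mRNA and 20.4 ± 1.92 ppm in total mRNA of Torin1 cells, and 11.5 ± 2.61 ppm in polysome mRNA and 17.4 ± 1.71 ppm in total mRNA of DMSO cells. No polysome library reached a total library of the same treatment for either gene. The log2 folds of Gad1 were -0.51 ± 0.14 in Torin1 cells (limma, adjusted p = 0.0115) and -0.39 ± 0.14 in DMSO cells (adjusted p = 0.0425). Those of Gad2 were -0.63 ± 0.16 in Torin1 cells (adjusted p = 0.00841) and -0.61 ± 0.16 in DMSO cells (adjusted p = 0.00986). The Gad1 call in DMSO cells was lost in 6 of 12 runs with a library left out (any one polysome DMSO library, total DMSO replicates 1 and 3, and total Torin1 replicate 3), up to an adjusted p = 0.152 without total DMSO replicate 3, and without the filter on low values (0.0563).

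Calb2 ran the other way. It averaged 11.6 ± 0.915 ppm in polysome mRNA and 6.36 ± 1.03 ppm in total mRNA of Torin1 cells, and 11.4 ± 0.736 ppm in polysome mRNA and 6.89 ± 0.959 ppm in total mRNA of DMSO cells (SD, n = 3 each). Each polysome library was above each total library of its treatment. The log2 folds were 0.88 ± 0.14 in Torin1 cells (limma, adjusted p = 0.000364) and 0.72 ± 0.14 in DMSO cells (adjusted p = 0.00132). With scaling to the column total the DMSO value was 0.35 with adjusted p = 0.0909. Of related genes, 13 of 30 other ventral transcription factors were lower and 1 higher in polysome mRNA in both treatments, and of 20 migration and subtype genes 10 were lower and 4 higher in both. Of 21 GABA genes 6 were lower and 3 higher in Torin1 cells, and 7 were lower and 0 higher in DMSO cells. Over all genes tested, 19.2% were called lower and 20.4% higher in Torin1 cells, and 20.5% lower and 20.5% higher in DMSO cells.

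**Figure D3:**
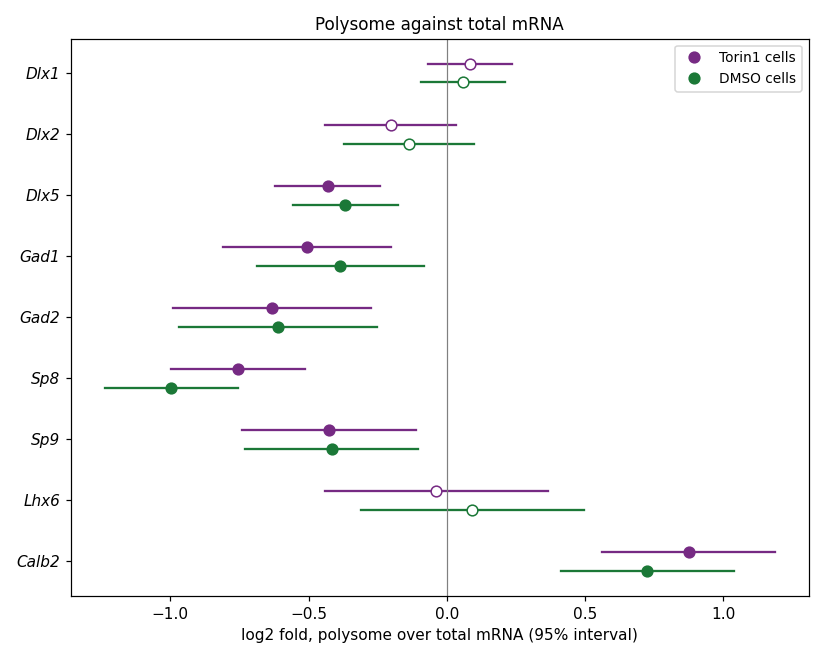
Log2 fold of polysome over total mRNA (x axis) for each of the 9 genes (y axis) in Torin1 cells (purple) and DMSO cells (green), with 95% intervals; filled points passed an adjusted p of 0.05 and open points did not. Sp8 lies furthest to the left (-0.76 in Torin1 cells and -0.996 in DMSO cells) and Calb2 alone is filled on the right (0.88 in Torin1 cells and 0.72 in DMSO cells).

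The number of members called in polysome mRNA depended on the scaling. With the column total alone, 6 members were higher in Torin1 cells, adding Dlx1 (0.34), Dlx2 (0.52) and Gad1 (0.48), and the median fold of all genes moved by 0.24. Of the 20240 genes tested, that scaling called 2911 higher, against 925 with the scaling used above. In DMSO cells the column total called 7 members lower and 0 higher in polysome against total mRNA, adding Dlx1 and Dlx2. The shift over all genes was -0.37. Of all genes 6708 were called lower and 1853 higher there, against 4147 lower and 4159 higher with the scaling used above. With the scaling used above the number called lower in DMSO cells was 5. It was 3 without any one of the 3 polysome DMSO libraries or without total DMSO replicate 1. Within-library ratios such as Sp8 to Dlx1 are free of this choice.

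Across the 12 libraries the log2 levels of Dlx5 and Sp8 had a Pearson's r of 0.946, those of Dlx2 and Sp9 0.934, and those of Dlx1 and Dlx2 0.379. Within groups, after removing the group means, Dlx2 and Sp9 had r = 0.822 and Dlx5 and Sp8 r = 0.296. These are descriptions over 12 libraries that share treatment, fraction and scaling. Among 8691 other expressed genes with assigned names, those most like Sp8 over the 12 libraries were Zfp608, a zinc finger gene, and Nrp2, a semaphorin receptor gene (both r = 0.986). Spry2, a feedback inhibitor of receptor tyrosine kinases, followed at 0.985, and Vgll4, a cofactor of TEAD factors, and Enc1, an actin-binding protein, at 0.984. Among those most like Gad2 were Usp29 (0.940), Snhg15 (0.936), Sbno2 (0.912) and Casc4 (0.911). No gene came as close to Dlx1, with Arl4c at 0.886, Cnppd1 at 0.860, Ngfr at 0.836, Pdxdc1 at 0.833 and Aldh16a1 at 0.821.

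Other ventral forebrain transcription factors gave the setting for the members. Of 30 such genes without the 9 members, 11 were higher and 0 lower in total mRNA of Torin1 cells, with a median log2 fold of 0.39. In polysome mRNA 11 were higher and 0 lower, with a median of 0.35. Of all genes tested, 3.04% were called higher and 4.35% lower in total mRNA, and 4.57% higher and 5.45% lower in polysome mRNA. This list and those below were chosen with earlier results of these data known, so the counts are no test of enrichment. The median was also 0.39 in total mRNA for 14 intermediate progenitor and excitatory neuron markers, with 8 higher and 1 lower. Prox1, a factor of caudal eminence interneurons, had 2.31 ± 0.177 ppm in total mRNA of Torin1 cells and 1.26 ± 0.114 ppm in DMSO cells (log2 fold 0.84 ± 0.23; limma, adjusted p = 0.0434), and 1.49 ± 0.156 ppm in polysome mRNA of Torin1 cells against 0.625 ± 0.137 ppm in that of DMSO cells (1.20 ± 0.23; adjusted p = 0.00574). Gsx2, a homeobox gene of lateral eminence progenitors, had 6.55 ± 0.224 ppm in total mRNA of Torin1 cells and 3.81 ± 0.570 ppm in DMSO cells (0.78 ± 0.17; adjusted p = 0.0163), and 8.20 ± 0.954 ppm in polysome mRNA of Torin1 cells against 3.81 ± 0.789 ppm in that of DMSO cells (1.11 ± 0.17; adjusted p = 0.00153), all SD over n = 3. For both genes the groups stood apart in both fractions.

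The count of 11 in total mRNA was fragile. It was 3, 7 and 2 without total Torin1 replicates 1, 2 and 3, and 3, 3 and 4 without total DMSO replicates 1, 2 and 3. It was 7 without polysome DMSO replicate 1 or 3, and 3 with scaling to the column total. In polysome mRNA the count was 7 without polysome DMSO replicate 1, 19 with the column total and 5 with those 2 groups fitted alone. Prox1 in total mRNA was lost in 8 of 12 runs with a library left out (any one total library, and polysome DMSO replicates 1 and 3), up to an adjusted p = 0.140 without total Torin1 replicate 2, and Gsx2 in 4 of 12 (total Torin1 replicates 1 and 3 and total DMSO replicates 2 and 3), up to 0.0642 without total DMSO replicate 2; neither was lost in polysome mRNA in those runs.

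Among 22 genes of interneuron migration and subtype, 20 could be tested. Of these, 6 were higher in total mRNA and 8 in polysome mRNA of Torin1 cells, and 0 were lower in either, with median log2 folds of 0.17 and 0.28. Over all genes tested, 3.04% were called higher in total mRNA and 4.57% in polysome mRNA. Nrp2, whose protein binds semaphorins and sorts migrating interneurons between striatum and cortex, had 28.1 ± 0.924 ppm in total mRNA of Torin1 cells and 14.7 ± 0.505 ppm in DMSO cells (log2 fold 0.93 ± 0.088; limma, adjusted p = 0.000169). Ackr3, a scavenger receptor for the chemokine Cxcl12, had 19.3 ± 3.57 ppm in total mRNA of Torin1 cells and 11.1 ± 0.624 ppm in DMSO cells (0.78 ± 0.12; adjusted p = 0.00327; SD, n = 3 each). In polysome mRNA their log2 folds were 0.98 ± 0.088 for Nrp2 and 1.07 ± 0.12 for Ackr3, and all 4 of these calls held in every run with a library left out. Vip was listed at 0 in all 12 libraries, and Pvalb was too low to test.

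Genes of GABA transport, breakdown and reception were counted in the same way. Of 21 genes without Gad1 and Gad2, 1 was higher in total mRNA and 2 in polysome mRNA of Torin1 cells, and 0 were lower in either, with median log2 folds of 0.097 and 0.12. Over all genes tested, 3.04% were called higher in total mRNA and 4.57% in polysome mRNA. Counts of 1 and 2 genes are too small to be told apart from these shares. Gabra2, a GABA-A receptor subunit, had a log2 fold of 0.93 ± 0.17 in total mRNA (16.4 ± 0.500 ppm in Torin1 cells, 8.59 ± 0.757 ppm in DMSO cells; limma, adjusted p = 0.00819) and 0.61 ± 0.17 in polysome mRNA (7.79 ± 1.79 ppm in Torin1 cells, 5.06 ± 0.992 ppm in DMSO cells; adjusted p = 0.0443). Gabrb2, another subunit, had 0.72 ± 0.17 in polysome mRNA (7.08 ± 1.70 ppm in Torin1 cells, 4.19 ± 0.168 ppm in DMSO cells; adjusted p = 0.0208; SD, n = 3 each) and did not pass in total mRNA. The vesicular GABA transporter gene Slc32a1 did not pass in either fraction, at -0.12 ± 0.12 in total and -0.065 ± 0.12 in polysome mRNA. The polysome call of Gabra2 was lost in 10 of 12 runs with a library left out, in all but those without polysome Torin1 replicate 1 or polysome DMSO replicate 1 and up to an adjusted p = 0.160, and that of Gabrb2 in 4 of 12 (polysome Torin1 replicates 2 and 3, polysome DMSO replicates 1 and 3), up to 0.0773. The polysome count was 0 without polysome Torin1 replicate 2 or polysome DMSO replicate 3 and with those 2 groups fitted alone, and 6 with the column total. It was 1 without polysome DMSO replicate 1 or 2 or any one total library. The total count was 4 with the compared groups alone.

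**Figure D4:**
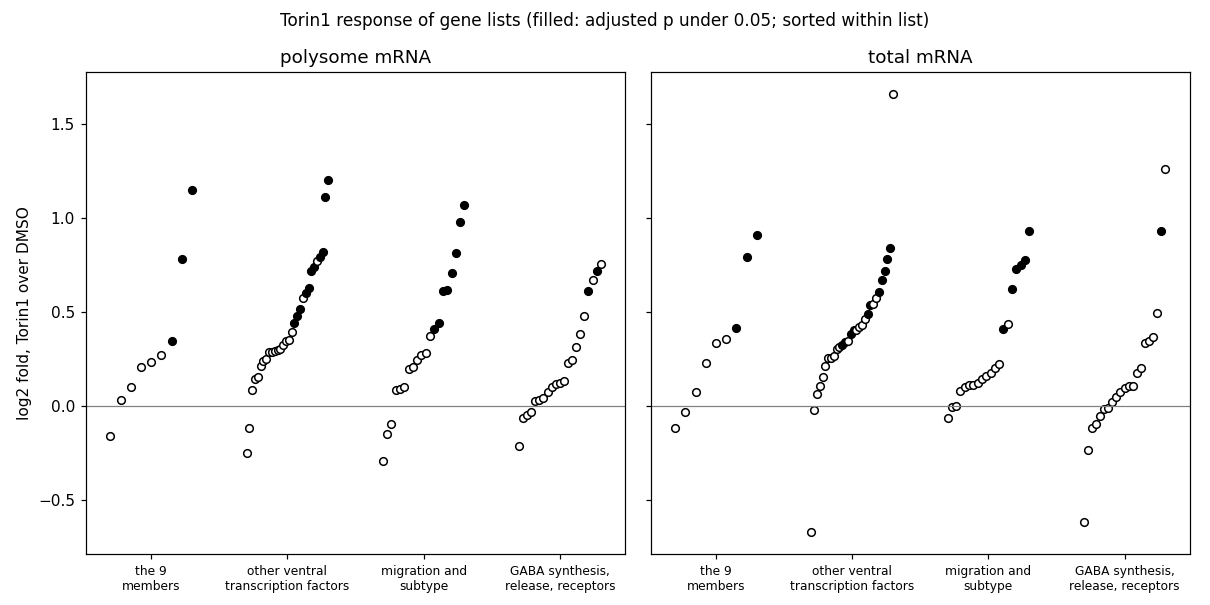
Log2 fold of Torin1 over DMSO (y axis) of each tested gene in 4 lists (x axis, sorted within a list), in polysome mRNA (left) and total mRNA (right); filled points passed an adjusted p of 0.05. In polysome mRNA 3 of the 9 members, 11 of 30 other transcription factors, 8 of 20 migration and subtype genes and 2 of 21 GABA genes are filled, all above 0.

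Markers of other cell types moved with the treatment as well. Their counts stand beside shares over all genes tested of 3.04% called higher in total mRNA and 4.57% in polysome mRNA. In total mRNA the summed level of 13 cortical progenitor markers was 4594 to 4728 ppm in Torin1 libraries and 4088 to 4193 ppm in DMSO libraries, with 3 called higher and 0 lower. The difference in this sum was no larger than that of the intermediate filament gene Vim alone, at 1700 ± 53.6 ppm in Torin1 and 1130 ± 16.0 ppm in DMSO libraries (SD, n = 3 each). Fabp7, at 1860 ± 36.0 ppm in Torin1 and 2040 ± 34.7 ppm in DMSO libraries, and Emx1, at 48.9 ± 1.83 ppm in Torin1 and 54.9 ± 2.20 ppm in DMSO libraries, lay below DMSO without overlap and did not pass the test. The summed level of 14 intermediate progenitor and excitatory neuron markers was 1627 to 1630 ppm in Torin1 and 1342 to 1357 ppm in DMSO libraries, with 8 higher and 1 lower. Striatal projection neuron markers summed to 313 to 334 ppm in Torin1 and 268 to 272 ppm in DMSO libraries, with 3 of 13 higher. Endothelial and meningeal markers summed to 67.6 to 80.7 ppm in Torin1 and 43.4 to 50.5 ppm in DMSO libraries, with 4 of 12 higher. For these 4 lists no Torin1 library overlapped a DMSO library. The same held for the ventral progenitor, cortical interneuron and erythroid sums given next. Ventral progenitor markers, of which Dlx1 and Dlx2 are 2, summed to 261 to 295 ppm in Torin1 and 225 to 244 ppm in DMSO libraries, with 3 of 11 higher. Cortical interneuron markers, of which Lhx6, Sp8, Sp9 and Calb2 are 4, summed to 779 to 865 ppm in Torin1 and 719 to 749 ppm in DMSO libraries, with 6 of 19 higher; Sst, which did not pass, made up much of that sum, at 561 ± 42.9 ppm in Torin1 and 519 ± 12.7 ppm in DMSO libraries.

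Cajal-Retzius markers, which include Calb2, overlapped in their sums, at 61.9 to 75.5 ppm in total Torin1 libraries and 56.0 to 62.7 ppm in total DMSO libraries, with 1 of 10 higher. Of 9 microglial markers limma called 0 in total mRNA, with 0 at an unadjusted p under 0.05, and of 9 erythroid markers 0, with 1 at an unadjusted p under 0.05. Their sums were 16.0 to 21.1 ppm in Torin1 and 13.7 to 19.7 ppm in DMSO libraries for microglia, and 1645 to 1915 ppm in Torin1 and 1525 to 1635 ppm in DMSO libraries for erythroid cells. The microglial sums overlapped, and the erythroid sums of Torin1 libraries lay above those of DMSO libraries without overlap. No marker of any list was at 0 in all 3 libraries of a group. In polysome mRNA the numbers higher were 4 of 13 for cortical progenitors, 8 of 14 for intermediate progenitors and excitatory neurons with 1 lower, 6 of 13 for striatal neurons, 3 of 12 for endothelial and meningeal cells, 2 of 11 for ventral progenitors, 7 of 19 for interneurons, 1 of 10 for Cajal-Retzius cells, 0 of 9 for microglia (1 at an unadjusted p under 0.05) and 1 of 9 for erythroid cells. The polysome sums of cortical progenitor markers were 5219 to 7462 ppm in Torin1 and 5575 to 6628 ppm in DMSO libraries, and those of intermediate progenitor and excitatory neuron markers 1358 to 1445 ppm in Torin1 and 1139 to 1159 ppm in DMSO libraries. Those of striatal markers were 232 to 255 ppm in Torin1 and 186 to 213 ppm in DMSO libraries, and those of endothelial and meningeal markers 72.4 to 90.2 ppm in Torin1 and 50.8 to 59.5 ppm in DMSO libraries. Those of ventral progenitor markers were 280.3 to 343 ppm in Torin1 and 256 to 272 ppm in DMSO libraries, and those of interneuron markers 1288 to 1556 ppm in Torin1 and 1176 to 1275 ppm in DMSO libraries. In that fraction the cortical progenitor sums overlapped and the other 5 did not. The part of cell composition in the members' folds was not tested.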

How the data were processed

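Polysome and total mRNA of cortical cells were sequenced in 12 libraries, 4 groups of 3 by title. The deposited table holds a signal that is never below 0, in 12 sample columns and 0 others. Its values move in steps of 0.01 ppm of the column total and are not reads, so depth is unknown and no counting interval is given. Per the submitters' processing notes, STAR 2.7.9a, HTSeq 0.6.0 and mm10 were used; how the table was scaled is not stated there. The table names genes by symbol and identifier.

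From the deposited signal, each library was scaled by its column total times a factor, the trimmed mean of its log ratios to one library (own code, unweighted; trim 0.3 of ratios, 0.05 of abundances). limma 3.58.1 (R 4.3.3) fitted log2(value + 1), values set to the mean column total, over all 12 libraries with 4 group means, for genes reaching 1 on the deposited scale in at least 3 libraries. This understates folds of very low genes. P-values were adjusted within each of 5 comparisons. The fit was tested on simulated data.

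Named are all members, the 2 largest called folds of each non-marker list, and the 5 genes most like Dlx1, Sp8 and Gad2, of which 1 is not reported here; marker lists are given as counts and sums. Genes named beyond this rule (Dlx6, Dlx1as, Slc32a1, Vip, Pvalb, Rn7sk, Sst, Npy, Cck, Calb1, Reln, Erbb4, Robo1, Nrp1, Cxcr4, Cxcl12, Fabp7, Emx1 and Vim) were chosen after their values were seen. Members and lists were chosen with earlier results of these data known. Titles number replicates 1 to 3, and no source says whether the libraries come from separate litters, so p-values measure the spread between libraries. Promoters come from RefSeq (GRCm38.p6). Alternatives were other scalings, filters, a pseudocount of 0.1, the compared groups alone, blocks and each library left out.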

Additional observations from a re-analysis of the deposited data

How the results depend on the processing

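The count of genes called in total mRNA was 1496. It was 841 with scaling to the column total, 2854 with the compared groups alone, and 739 to 2227 with each library left out. In polysome mRNA it was 2028 (925 higher, 1103 lower), against 3240 with the column total (2911 higher, 329 lower), 749 with the compared groups alone, and 1189 to 2723 with each library left out. The interaction count was 147, and 99 to 224 with each library left out; the compared groups alone were not run there, since it uses all 4 groups. With the column total the split of higher and lower calls moved to 32 and 119 in the interaction, against 4 and 143, to 3176 and 4222 in polysome against total mRNA of Torin1 cells, against 4133 and 3892, and to 1853 and 6708 in DMSO cells, against 4159 and 4147.

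With the column total these log2 values of members that had not passed changed sign: Lhx6 in polysome mRNA to 0.084, the interactions of Dlx2 to 0.20, Dlx5 to 0.21, Gad1 to 0.15, Gad2 to 0.25, Sp9 to 0.26 and Lhx6 to 0.14, and polysome over total mRNA of Dlx1 to -0.020 in Torin1 cells and -0.32 in DMSO cells and of Lhx6 to -0.28 in DMSO cells. Of these, the value of Dlx1 in DMSO cells passed the test with the column total, as a fall (limma, adjusted p = 0.0233). That scaling moved the median of all genes by 0.27 in the interaction. With each library left out, values ran from -0.23 to 0.022 for Calb2 and -0.13 to 0.13 for Lhx6 in total mRNA, and from -0.017 to 0.10 and -0.33 to 0.031 in polysome mRNA. Interactions ran from -0.027 to 0.072 for Dlx1, -0.15 to 0.067 for Dlx2, -0.13 to 0.024 for Dlx5, -0.25 to 0.056 for Gad1, -0.16 to 0.15 for Gad2, -0.12 to 0.12 for Sp9 and -0.30 to 0.062 for Lhx6. Polysome over total mRNA of Lhx6 ran from -0.20 to 0.15 in Torin1 cells and -0.011 to 0.24 in DMSO cells. The cause was not tested.

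Libraries with the same replicate number did not deviate together, with correlations from -0.0626 to 0.0728 between polysome and total mRNA and from -0.277 to 0.328 between Torin1 and DMSO. With the replicate number as a block, the counts were 1269 for total mRNA, 1868 for polysome mRNA, 147 for the interaction, and 7892 in Torin1 and 8212 in DMSO cells for polysome against total mRNA. Among the members that block ended 1 call, Sp9 in polysome against total mRNA of DMSO cells (adjusted p = 0.0522), and among the other genes named by the rule Prox1 in total mRNA (0.0660) and Gabra2 in polysome mRNA (0.0720). With the culture as a block no call of a member or of these genes was lost. Reads per library are unknown, which limits what can be said of genes near 1 ppm such as Prox1.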

Other observations

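Of the 20 migration and subtype genes tested, 4 were called higher in polysome against total mRNA, as Calb2 was, and 10 were called lower. The 4 are given here and were picked after their values were seen. The somatostatin gene Sst averaged 1140 ± 112 ppm in polysome mRNA and 561 ± 42.9 ppm in total mRNA of Torin1 cells, and 987 ± 43.8 ppm in polysome mRNA and 519 ± 12.7 ppm in total mRNA of DMSO cells (SD, n = 3 each). Its log2 fold of polysome over total mRNA was 1.03 in Torin1 cells (limma, adjusted p = 3.05e-06) and 0.93 in DMSO cells (adjusted p = 4.54e-06). The neuropeptide gene Npy had 0.92 in Torin1 and 0.82 in DMSO cells, the cholecystokinin gene Cck 1.19 in Torin1 and 1.27 in DMSO cells, and the calbindin gene Calb1 0.66 in Torin1 and 0.76 in DMSO cells, all past the threshold. Torin1 over DMSO passed for none of these 4 genes in either fraction; the log2 folds in total mRNA were 0.11 for Sst, -0.0068 for Npy, -0.067 for Cck and -0.0022 for Calb1.

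Some genes of the migration and subtype list ran the other way, of which 4 picked after their values were seen are given; 10 of the 20 genes tested in that list were lower in polysome mRNA and 4 higher, in both treatments. Cxcr4 and Cxcl12, a chemokine receptor and its ligand, did not pass, at 0.0054 for Cxcr4 and -0.0046 for Cxcl12 in Torin1 cells and 0.052 for Cxcr4 and 0.0053 for Cxcl12 in DMSO cells. The reelin gene Reln had log2 folds of polysome over total mRNA of -1.55 in Torin1 and -1.41 in DMSO cells, the neuregulin receptor gene Erbb4 -1.31 in Torin1 and -1.47 in DMSO cells, and the axon guidance receptor genes Robo1 -1.12 in Torin1 and -1.22 in DMSO cells and Nrp1 -0.94 in Torin1 and -1.02 in DMSO cells, all past the threshold.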
